A study of Mus musculus with 20 samples.

Results

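The genes described here are 35 markers of primitive, visceral and definitive endoderm, the lineages that form the yolk sac lining and the gut. They were listed by name out of 55573 genes in the count table, with earlier results of these data known, and all 35 were found in it. RNA-seq was done on embryoid bodies (EBs), aggregates in which pluripotent stem cells differentiate, made from 4 mouse lines of induced pluripotent stem cells (iPSCs). The paper's iPSCs came from embryonic fibroblasts infected with retroviruses carrying Oct4, Sox2, Klf4 and c-Myc, and each of its lines was picked as 1 colony. Lines made this way hold these transgenes. The wild type lines were WT#1-4 and WT#20D-17, and the lines from fibroblasts lacking Nox4, an enzyme that makes reactive oxygen species, were Nox4-/- #5-8 and Nox4-/- #5-23. Each line gave 1 library on each of days 0, 3, 5, 7 and 14 of differentiation, 20 in all. The iPSCs were kept on mitomycin C-treated fibroblast feeders with LIF, and EBs were then formed in hanging drops without LIF and plated on gelatin, in the same way for both genotypes. The paper names 3 of the lines, while WT#20D-17 is given as wild type in the sample labels only. How that line was made is thus not described in the paper by its name. The labels' protocol gives day 10 for the last day, and the titles and the paper give day 14, which is used here.

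In the mouse embryo, primitive endoderm arises beside the epiblast under the control of Gata6, Gata4, Sox17 and Sox7, and then gives rise to visceral and parietal endoderm. Visceral endoderm absorbs proteins from its surroundings through the receptors megalin and cubilin, and it secretes the carriers and lipoproteins that the liver later makes. Definitive endoderm appears at gastrulation and shares Sox17 and Foxa2 with the earlier lineages. EBs of pluripotent cells are known to form an outer layer of primitive endoderm.

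The libraries held between 20294968 and 27708023 counts. Levels below are CPM, counts scaled to a common library size with TMM factors, and 3 counts, the floor below which a gene is called not detected, come to between 0.108 and 0.148 CPM before that scaling. Nox4 itself stood between 2.62 and 9.01 CPM in WT#20D-17, between 0.149 and 0.874 CPM in WT#1-4, and at no more than 2 counts in any Nox4-/- library. The lines also differed in the markers of the pluripotent state that they are labelled with. On day 0 Nanog stood at 383 CPM in WT#20D-17, at 0.038 CPM in WT#1-4, at 0.359 CPM in Nox4-/- #5-8 and at 0.149 CPM in Nox4-/- #5-23, and Zfp42, at 41.6 CPM in WT#20D-17, was listed at 0 in all 15 other libraries. Fgf4, of the same list of 8 pluripotency markers, went the other way on day 0. It stood at 93.4 CPM in WT#20D-17, 146 CPM in WT#1-4, 135 CPM in Nox4-/- #5-8 and 174 CPM in Nox4-/- #5-23. Of the 8 markers, 7 were higher and 1 lower in WT#20D-17 than in WT#1-4, in the edgeR fit of line and day given below. WT#20D-17 stood apart from the other 3 lines before differentiation began. The main counts of genes called over days and by genotype are given with and without it. Counts by role and tests of other gene lists are given only with it.

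**Figure D1:**
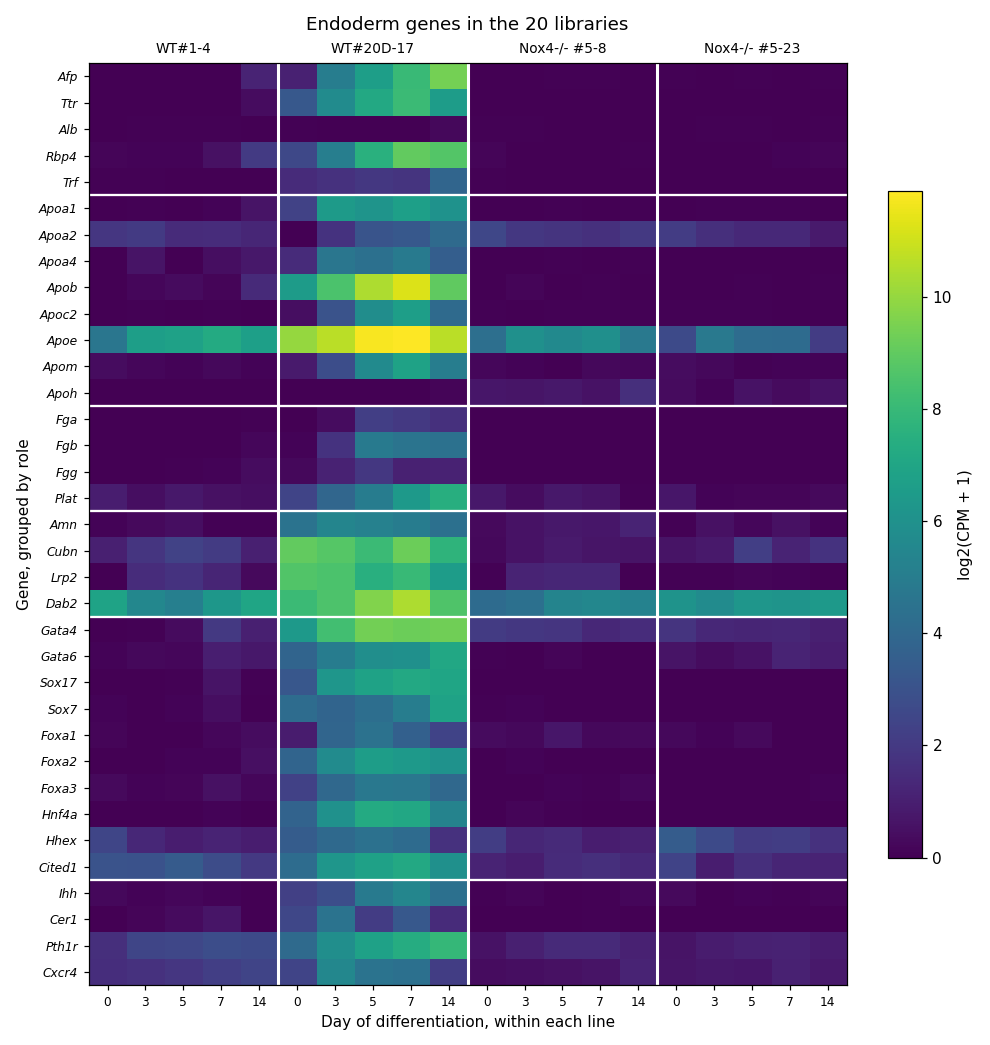
Level of each of the 35 endoderm genes (rows, grouped by role) in each of the 20 libraries (columns, by line and day), as log2(CPM + 1). The 5 libraries of WT#20D-17 are bright in most rows, while in the other 3 lines few genes other than Apoe and Dab2 stand out.

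Promoter sequences are shown for 5 genes of secreted proteins, 4 that WT#20D-17 expressed and Alb, which it hardly did. Afp (alpha-fetoprotein, chr5:90490737-90508907, plus strand) reached 667 CPM, and Alb (albumin, chr5:90460897-90476602, plus strand), its neighbour upstream, did not pass 0.21 CPM. Apob, Rbp4 and Fgb reached 2450, 525 and 28.4 CPM in the same line. Each sequence runs from 250 bases before to 50 bases after a RefSeq transcription start (GRCm38.p6), 5′ to 3′ on the strand of the gene. Capitals mark the letters of 5 motifs. Searched on both strands were AGATAA for the factors of the GATA family, TGTTTAC for those of the FOXA family, GTTAAT for HNF1 and CAAAGTCCA for HNF4. The fifth, the TATA box, was searched as TATAAA on the strand of the gene.
Afp (chr5:90490464-90490763, +): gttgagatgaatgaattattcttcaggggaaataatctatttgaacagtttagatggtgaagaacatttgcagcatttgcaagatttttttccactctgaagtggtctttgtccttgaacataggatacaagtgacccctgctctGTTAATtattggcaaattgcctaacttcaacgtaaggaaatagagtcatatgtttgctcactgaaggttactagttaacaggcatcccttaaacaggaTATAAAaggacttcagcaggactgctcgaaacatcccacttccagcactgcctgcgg
Alb (chr5:90460620-90460919, +): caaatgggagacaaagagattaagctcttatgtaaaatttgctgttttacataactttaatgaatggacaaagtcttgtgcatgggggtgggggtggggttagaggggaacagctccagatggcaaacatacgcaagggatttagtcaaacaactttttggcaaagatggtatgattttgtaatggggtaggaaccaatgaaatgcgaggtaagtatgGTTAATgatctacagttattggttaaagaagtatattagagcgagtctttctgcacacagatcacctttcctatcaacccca
Apob (chr12:7977427-7977726, +): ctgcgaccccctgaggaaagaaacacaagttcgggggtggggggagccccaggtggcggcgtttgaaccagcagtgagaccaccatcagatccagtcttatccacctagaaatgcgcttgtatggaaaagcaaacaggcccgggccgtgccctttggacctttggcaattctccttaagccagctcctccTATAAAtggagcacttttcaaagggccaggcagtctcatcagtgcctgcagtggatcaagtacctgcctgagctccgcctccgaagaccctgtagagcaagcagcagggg
Rbp4 (chr19:38125272-38125571, -): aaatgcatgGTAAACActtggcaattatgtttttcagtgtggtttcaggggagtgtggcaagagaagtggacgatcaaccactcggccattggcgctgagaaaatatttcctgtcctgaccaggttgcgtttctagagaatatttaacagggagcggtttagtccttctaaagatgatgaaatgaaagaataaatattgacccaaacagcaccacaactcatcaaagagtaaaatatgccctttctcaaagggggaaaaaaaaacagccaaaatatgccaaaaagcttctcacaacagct
Fgb (chr3:83049814-83050113, -): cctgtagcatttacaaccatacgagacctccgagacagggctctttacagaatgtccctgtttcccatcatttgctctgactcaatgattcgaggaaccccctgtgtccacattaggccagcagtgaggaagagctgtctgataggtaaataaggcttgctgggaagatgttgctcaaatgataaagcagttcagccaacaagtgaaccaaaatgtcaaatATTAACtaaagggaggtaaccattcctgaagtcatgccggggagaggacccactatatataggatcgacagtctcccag

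The HNF1 letters occurred at both Afp and Alb, and also, on the other strand, at Fgb. Over the whole set, 28 of the 35 genes had an entry in the RefSeq promoter table, with 40 promoters between them, and Ttr, Trf, Plat, Gata4, Gata6, Sox17 and Sox7 did not. The HNF1 motif was found in 9 of the 40 promoters (22.5%) and in 7.1% of all 32851 promoters. The TATA box was found in 9 (22.5%, against 8.32% of all), the FOXA motif in 5 (12.5%, against 3.65%) and the GATA motif in 3 (7.5%, against 11.2%). The HNF4 motif was found in 0 of the 40 and in 0.47% of all. No motif of the 5 was present in most of these promoters. These letter matches are descriptions and were not tested as binding sites.

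WT#20D-17 expressed nearly the whole set, and the other 3 lines expressed little of it. In WT#20D-17, 33 of the 35 genes passed 20 counts in at least 1 library, 31 passed 10 CPM and 18 passed 100 CPM. In WT#1-4 15 genes passed 20 counts and 2 passed 10 CPM, namely Apoe and Dab2. In Nox4-/- #5-8 the numbers were 12 and 2, and in Nox4-/- #5-23 they were 10 and 3, the third gene being Hhex. At the other end, 7 genes stayed at or under 3 counts in every WT#1-4 library, against 20 in Nox4-/- #5-8 and 19 in Nox4-/- #5-23. Ttr, Fga, Fgb, Fgg and Sox17 had 0 counts in all 10 Nox4-/- libraries. In these bulk samples, fewer cells of a type and less RNA per cell cannot be told apart.

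The lines were compared in a fit of line and day over all 20 libraries (edgeR quasi-likelihood test, Benjamini-Hochberg adjusted). In WT#20D-17, 32 of the 34 genes tested were higher than in WT#1-4 at an FDR below 0.05 and 0 were lower, while 26.7% of all 19240 genes tested were higher and 24.6% lower. The median difference was 7.31 log2 units over the 34 genes and 0.01 over all genes. The exceptions were Apoa2 (1.63 ± 0.835 SE, FDR of 0.114) and Apoh, which had at most 2 counts in either line (FDR of 0.143). Alb did not pass the filter on low counts. That filter used all 20 libraries, and in the fit without WT#20D-17 only 23 of the genes passed it. Ttr, Trf, Apoc2, Apom, Fga, Fgb, Fgg, Sox7, Foxa2, Hnf4a and Ihh passed only with WT#20D-17 included. The smaller fit also had a looser filter, since its wild type groups held 1 library each. Afp, Apob, Apoa1, Sox17, Foxa1, Foxa3 and Cer1 passed it on 1 library each, so in the larger fit they too depended on WT#20D-17. For all these genes a call as higher in that line was close to fixed in advance, here and in the results that follow. The same 32 genes were lower in Nox4-/- #5-8 than in WT#20D-17 (29.5% of all genes) and lower in Nox4-/- #5-23 than in WT#20D-17 (29.5% of all genes). For 26 genes all 5 WT#20D-17 values lay above all 15 other values, which held for 10.7% of all genes tested. These comparisons are between 1 line and another, and the days of a line are not separate lines. The p-values thus measure the spread between these libraries and not between independent lines of a genotype.

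**Figure D2:**
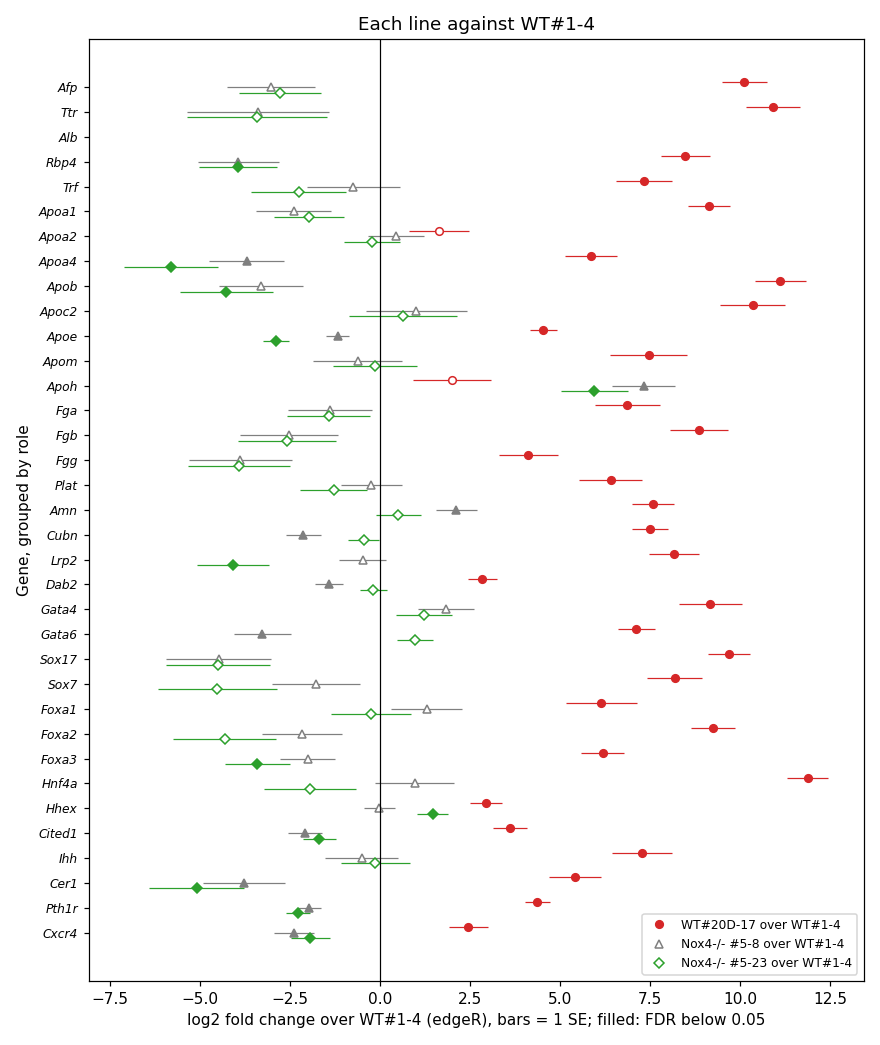
Fitted log2 fold changes over WT#1-4 of the other 3 lines for the 34 genes tested, with bars of 1 SE and filled symbols for an FDR below 0.05. Values of genes with 0 counts in a whole line depend on the prior count and are no bound. The WT#20D-17 points lie to the right of 0 for all genes, and most Nox4-/- points lie at or to the left of 0, with Apoh on the right.

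The serum carriers are proteins that move vitamins, hormones and metals in the circulation. Afp, the main serum protein of the fetus, went in WT#20D-17 from 1.15 CPM on day 0 to 32.1, 101, 269 and 667 CPM on days 3, 5, 7 and 14. In WT#1-4 it had 0 counts until day 7 and 25 counts (1.24 CPM) on day 14, and no Nox4-/- library had more than 1 count. Its fitted difference between the wild type lines was 10.12 ± 0.63 log2 units (FDR of 1.94e-09). Ttr, transthyretin, the carrier of thyroxine and of retinol-binding protein, stood at 8.65, 52.6, 144, 277 and 95 CPM in WT#20D-17, at 6 counts on day 14 and 0 before it in WT#1-4, and at 0 counts in every Nox4-/- library. Over the 5 days its mean in WT#20D-17 was at least 896-fold higher than in Nox4-/- #5-8 and at least 954-fold higher than in Nox4-/- #5-23, taking the floor of 3 counts in each library of those lines. Rbp4, the retinol-binding protein itself, went in WT#20D-17 from 5 to 32.7, 188 and 525 CPM and stood at 412 CPM on day 14. In WT#1-4 it had 3, 2, 2 and 12 counts up to day 7 and 63 counts (3.12 CPM) on day 14, while the Nox4-/- libraries held at most 3. Trf, transferrin, the iron carrier, stayed between 1.76 and 2.83 CPM in WT#20D-17 until day 7 and reached 13.6 CPM on day 14, with at most 1 count elsewhere. Alb, the serum protein of the mature liver, had at most 4 counts in any library, so albumin RNA was not detectable above a few counts beside 12707 counts of Afp on day 14. Afm, which lies in the same cluster, did not pass 0.84 CPM. All 4 carriers tested were higher in WT#20D-17 than in each of the other 3 lines. The values of Afp still overlapped, since WT#20D-17 on day 0 was below WT#1-4 on day 14.

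**Figure D3:**
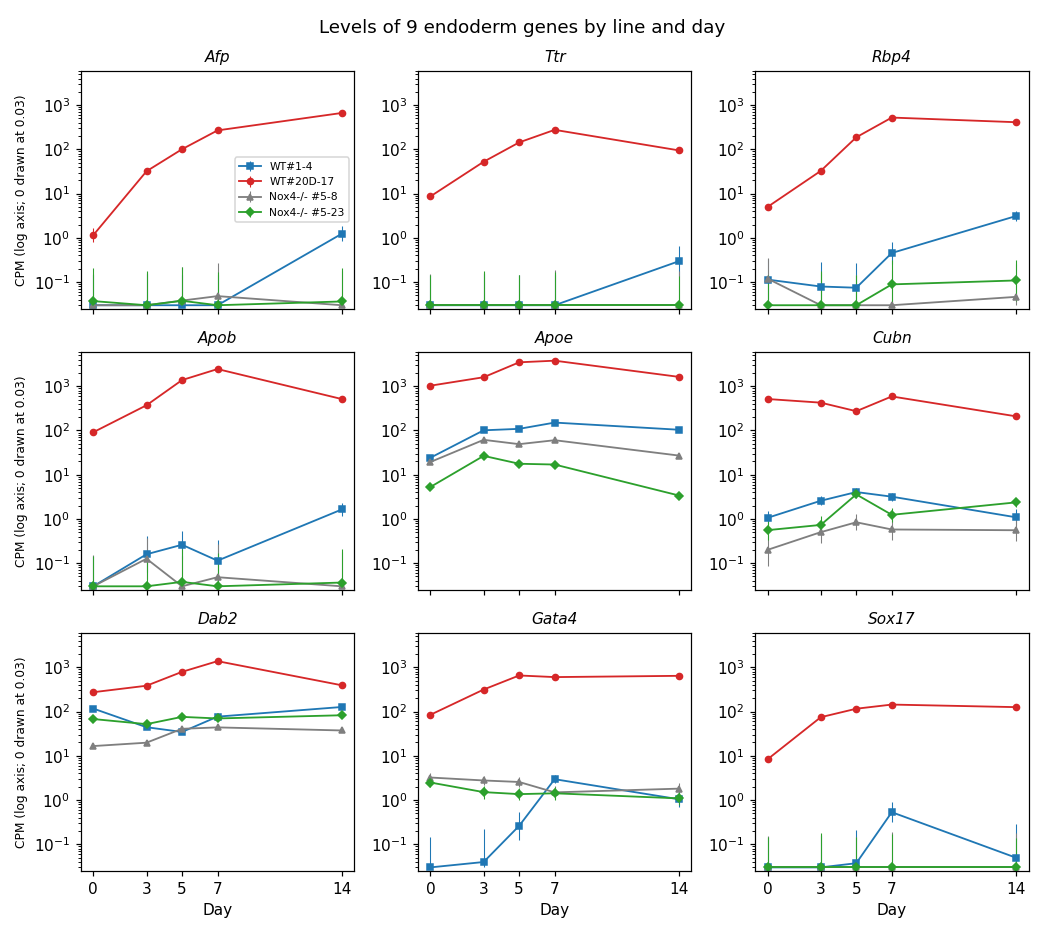
CPM of 9 endoderm genes on days 0 to 14 in each line, on a log axis with 95% Wilson intervals of the count; a value of 0 is drawn at the foot of the axis. WT#20D-17 lies far above the other lines, by less for Apoe and Dab2, which are well expressed in all 4 lines.

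The apolipoproteins, which build the lipoprotein particles that visceral endoderm and liver secrete, followed the same line. Apob, the structural protein of large lipoproteins, stood at 91.2 CPM in WT#20D-17 on day 0 and at 372, 1380, 2450 and 514 CPM thereafter. In WT#1-4 it had 0, 4, 7, 3 and 33 counts, and in the Nox4-/- lines at most 3. The fitted difference between the wild type lines was 11.12 ± 0.711 log2 units (FDR of 2.67e-09). Apoe, a ligand for lipoprotein uptake that many cell types make, was well expressed in every library. It stood at 1030, 1600, 3480, 3790 and 1630 CPM in WT#20D-17, at 24.2, 101, 109, 151 and 104 CPM in WT#1-4, at 19.4, 61.5, 49.1, 60.3 and 27.1 CPM in Nox4-/- #5-8, and at 5.28, 26.7, 17.7, 17 and 3.39 CPM in Nox4-/- #5-23. The 5 WT#20D-17 values were above all others, and the mean was 23.6-fold that of WT#1-4. Apoe was also lower in Nox4-/- #5-23 than in Nox4-/- #5-8 by 1.72 ± 0.335 log2 units (log2 fold change of -1.72, FDR of 0.00433). Apoa1, of high density lipoprotein, and Apoa4, of chylomicrons, lie in a cluster on chromosome 9, and in WT#20D-17 they stood at 87.3 and 24.3 CPM on day 3 and were highest on day 7, at 104 and 27.6 CPM. In that cluster, Apoc3 did not pass 1.24 CPM and Apoa5 did not pass 1.38 CPM. Apoc2, the activator of lipoprotein lipase, went from 0.369 CPM to 99.3 CPM on day 7 and back to 16.3 CPM on day 14, and Apom, which carries sphingosine phosphate, from 0.82 to 115 and 31.7 CPM. Apoc1, between Apoe and Apoc2, kept between 11.1 and 18.2 CPM in the same libraries, and Apoc4 was at or under 0.0888 CPM. Neighbouring genes of a cluster were thus at very different levels.

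Apoa2 and Apoh were the exceptions. Apoa2, the second protein of high density lipoprotein, was present in all lines but not in WT#20D-17 on day 0. It had 71, 76, 47, 49 and 29 counts in WT#1-4, 121, 66, 64, 44 and 62 in Nox4-/- #5-8, 88, 45, 41, 36 and 22 in Nox4-/- #5-23, and 0, 55, 172, 194 and 308 in WT#20D-17. The groups overlapped, and no contrast between lines passed an FDR of 0.05. Apoh, beta-2-glycoprotein I, went the other way from the rest of the set. It had 16, 14, 19, 10 and 43 counts in Nox4-/- #5-8, 7, 2, 13, 6 and 13 counts in Nox4-/- #5-23, 0 in all 5 WT#1-4 libraries, and 0 in WT#20D-17 except for 2 on day 14. Against the floor in WT#1-4, its mean was at least 7.28-fold higher in Nox4-/- #5-8 and at least 2.61-fold higher in Nox4-/- #5-23. Its highest level was 1.99 CPM, and the gene overlaps Prkca on the opposite strand, which had up to 2076 counts. Whether reads of that gene enter the Apoh count was not tested, since the strand setting of the counting is not given.

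The fibrinogen chains, which form the clot protein and are made by liver, were low but present in WT#20D-17. Fgb stood at 0.082, 2.37, 28.4, 22.9 and 20.9 CPM, Fga at 0, 0.301, 3.62, 2.89 and 2.15 CPM, and Fgg at 0.205, 1.21, 2.79, 1.11 and 1.21 CPM. Fga, Fgb and Fgg lie together on chromosome 3, and the protein holds the 3 chains in equal number. Per kilobase of exon on day 7, Fgb stood at 6.01 CPM, Fga at 0.959 and Fgg at 0.53, so the 3 mRNAs were not at equal levels. WT#1-4 had 3 counts of Fgb, 1 of Fga and 6 of Fgg on day 14, and against the floor of the Nox4-/- #5-8 libraries, where all 3 genes were at 0, the mean of Fgb in WT#20D-17 was at least 116-fold higher. Plat, tissue plasminogen activator, a protease that parietal endoderm is known to secrete, went in WT#20D-17 from 4.43 to 14, 30.7, 83.5 and 177 CPM. It stayed between 0.347 and 0.912 CPM in WT#1-4 and at no more than 0.726 CPM in the Nox4-/- lines. The fitted difference between the wild type lines was 6.41 ± 0.874 log2 units (FDR of 1.32e-05).

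The uptake receptors were already high in WT#20D-17 on day 0. Cubn, cubilin, stood at 515, 426, 273, 589 and 209 CPM there, and Lrp2, megalin, its partner, at 406, 365, 181, 261 and 95.3 CPM. Amn, amnionless, which brings cubilin to the membrane, stood at 21.9, 42.1, 36.8, 31.2 and 20.2 CPM. In WT#1-4, Cubn was between 1.06 and 4.06 CPM and Lrp2 between 0 and 2.35 CPM. In Nox4-/- #5-8 Cubn was between 0.2 and 0.841 CPM and in Nox4-/- #5-23 between 0.558 and 3.59 CPM, and Lrp2 had at most 38 counts in Nox4-/- #5-8 and 3 in Nox4-/- #5-23. The mean of Cubn in WT#20D-17 was 168-fold that in WT#1-4. Dab2, the adaptor that gathers these receptors into coated pits, was expressed by all lines. It stood at 274, 384, 791, 1380 and 393 CPM in WT#20D-17, at 117, 44.3, 34.6, 76.8 and 127 CPM in WT#1-4, at 16.6, 19.8, 40.8, 43.9 and 37.4 CPM in Nox4-/- #5-8, and at 67.8, 52, 75.9, 69.9 and 82.6 CPM in Nox4-/- #5-23. The fitted difference of Dab2 between the wild type lines, 2.84 ± 0.408 log2 units (FDR of 2.29e-05), was the smallest of the 4. Between day 0 and day 14, 0 of the 4 passed an FDR below 0.05, in the edgeR test described further on.

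The transcriptional regulators were all higher in WT#20D-17 than in WT#1-4, 10 of 10. Gata4, a zinc finger factor of primitive endoderm, stood at 84.5, 315, 655, 602 and 643 CPM in WT#20D-17. In WT#1-4 it had 0, 1, 7, 78 and 21 counts, the largest on day 7, and in the Nox4-/- lines it was between 1.09 and 3.23 CPM on every day, with 30 to 81 counts. WT#1-4 on day 7, at 2.96 CPM, was thus within the range of the Nox4-/- libraries. Sox17, which acts with it, stood at 8.32, 74.6, 116, 144 and 126 CPM in WT#20D-17, and in WT#1-4 it had 14 counts on day 7 and at most 1 on the other days. Hnf4a, the nuclear receptor that drives apolipoprotein genes in visceral endoderm and liver, stood at 13, 63.4, 154, 137 and 39.3 CPM in WT#20D-17 and had at most 3 counts in any other library. The difference between the wild type lines passed the test (FDR of 3.86e-09), and with 2 counts over the 5 WT#1-4 libraries no fold is given. Cited1, a transcriptional co-activator, stood at 17.5, 74.5, 112, 143 and 60.8 CPM in WT#20D-17, between 2.93 and 9.51 CPM in WT#1-4, and between 0.917 and 4.27 CPM in the Nox4-/- lines. The forkhead factors Foxa1, Foxa2 and Foxa3, which open liver and gut genes, reached 21.1, 96.1 and 25.7 CPM, each on day 5. Gata6 reached 140 CPM and Sox7 116 CPM, each on day 14. Gata6 also had 7 to 28 counts in Nox4-/- #5-23 but at most 3 in Nox4-/- #5-8, a difference of 4.23 ± 0.734 log2 units (FDR of 0.00188). Hhex, a homeobox gene of anterior visceral endoderm and liver bud, was detected in every library, at 10, 15.7, 20.5, 16.7 and 2.2 CPM in WT#20D-17 and at 10.1, 5.27, 3.21, 3.42 and 2.26 CPM in Nox4-/- #5-23, so these lines overlapped.

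Among the signals and receptors, Cer1 and Cxcr4 came first. Cer1, a Nodal and BMP antagonist of anterior visceral endoderm, stood at 4.8, 22.1, 3.36, 8.52 and 1.73 CPM in WT#20D-17. Cxcr4, the chemokine receptor of definitive endoderm, stood at 4.47, 44.7, 21.8, 20.2 and 3.46 CPM. Both were highest on day 3. In WT#1-4 Cer1 had 0, 3, 7, 16 and 0 counts, and Cxcr4 stood at 1.94, 2.22, 2.72, 3.64 and 4.41 CPM, so that on day 14 WT#1-4 was above WT#20D-17. Ihh, the hedgehog ligand of visceral endoderm, was highest on day 7 at 42.4 CPM in WT#20D-17 and had at most 6 counts in any other library. Pth1r, the receptor for parathyroid hormone-related protein, through which parietal endoderm is known to form, went in WT#20D-17 from 16.4 to 58.3, 109, 161 and 237 CPM. It stood at 2.01, 4.57, 4.7, 5.92 and 5.31 CPM in WT#1-4 and at no more than 1.68 CPM in the Nox4-/- lines. Pth1r overlaps Myl3, a cardiac and muscle gene on the opposite strand with up to 3178 counts, and its part in the Pth1r count was not tested.

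In time, the day of the highest level differed among the genes in WT#20D-17. Lrp2 was highest on day 0, and Amn, Cer1 and Cxcr4 were highest on day 3. Day 5 was the highest for 9 genes, namely the 3 fibrinogen chains, the 3 Foxa genes, Gata4, Hnf4a and Hhex. Day 7 was the highest for 13 genes, among them Ttr, Rbp4, Cubn, Dab2, Sox17, Ihh and 6 of the 8 apolipoproteins. Day 14 was the highest for 7 genes, namely Afp, Trf, Apoa2, Plat, Gata6, Sox7 and Pth1r. On day 14, Apob, Hnf4a and Apoc2 stood at 0.21, 0.255 and 0.164 of their highest level. With 1 library a day there is no replicate check of these days within the line. Some of the highest days were near ties, such as 655 CPM on day 5 and 643 CPM on day 14 for Gata4 and 25.7 CPM on day 5 and 25.1 CPM on day 7 for Foxa3. With upper quartile scaling the highest day moved to day 14 for Gata4 and to day 0 for Cubn. The library of day 14 also had the highest sum of 10 basement membrane and parietal endoderm type genes, which came to 2030, 4420, 9620, 14900 and 85900 CPM on the 5 days, with Col4a1 alone at 26200 CPM on day 14. In the other lines the same 10 genes summed to at most 3570 CPM. The part of these transcripts in the CPM of the other genes on that day was not tested.

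**Figure D4:**
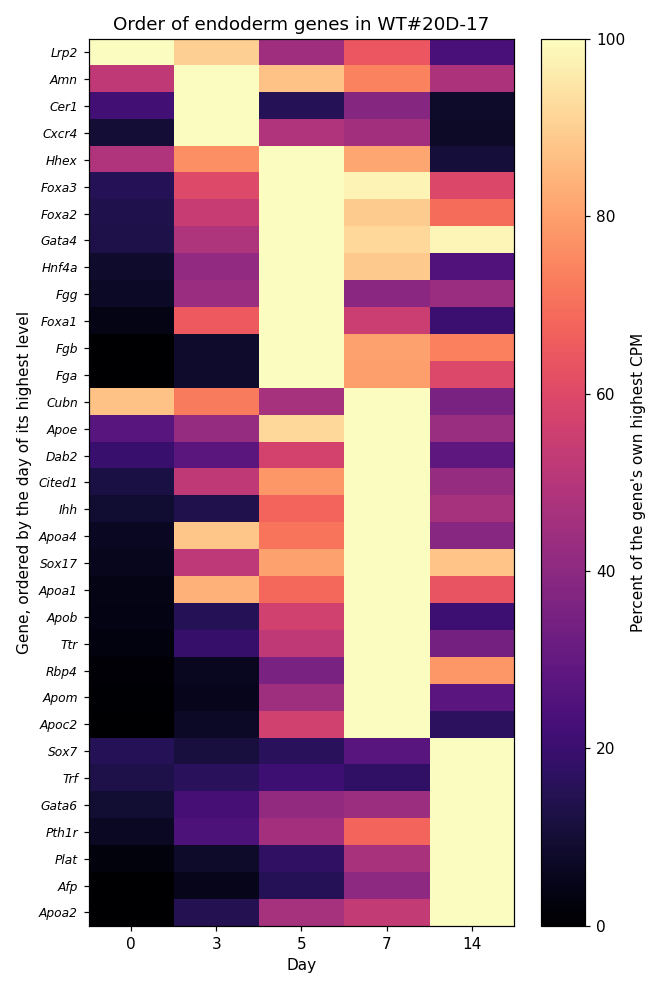
CPM of the 33 genes that passed 20 counts in WT#20D-17, as a percent of each gene's own highest value, by day (1 library a day). Genes are ordered by the day of their highest level: 1 gene on day 0, 3 on day 3, 9 on day 5, 13 on day 7 and 7 on day 14.

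WT#1-4 showed some of the same genes at low counts, most of them late. On day 14 it had 63 counts of Rbp4, 33 of Apob, 25 of Afp, 11 of Apoa1, 8 of Foxa2 and 6 each of Ttr and Fgg, and on day 7 it had 78 of Gata4, 26 of Gata6, 16 of Cer1, 14 of Sox17 and 9 of Sox7. For the early regulators the count was lower on day 14 than on day 7, with 21 for Gata4 and 1 for Sox17. In the Nox4-/- lines none of Rbp4, Apob, Afp, Apoa1, Foxa2, Ttr, Fgg, Sox17, Sox7 or Cer1 had over 3 counts on any day. Gata4 and Gata6 did not share this. Gata4 had 30 to 81 counts in every Nox4-/- library, and on day 0, where WT#1-4 had 0, it had 81 and 67. Gata6 had 7 to 28 counts in Nox4-/- #5-23 and at most 3 in Nox4-/- #5-8. With 1 library a day only counting error can be given: for the 25 counts of Afp, 1.24 CPM, the 95% Wilson interval was 0.84 to 1.83 CPM.

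The effect of genotype was first tested as in a pooled comparison, with the 5 WT#1-4 libraries against the 10 Nox4-/- libraries (edgeR exact test, FDR below 0.01). Of the 35 genes, 8 were lower in the Nox4-/- lines, where 3.97% of all 33860 genes were lower, and 1 was higher, where 1.65% were higher. Cxcr4 (log2 fold change of -2.13, FDR of 1.36e-07), Pth1r (-2.09, FDR of 1.06e-07) and Cited1 (-1.89, FDR of 1.71e-05) were lower, and Apoh was higher (FDR of 2.7e-07). These 4 genes passed under each of the 14 alternatives tried. Rbp4 (-4.2, FDR of 0.00147), Apoa4 (-4.62, FDR of 0.00299), Apob (-3.86, FDR of 0.0049), Cer1 (-4.43, FDR of 0.00967) and Apoe (-1.77, FDR of 0.00988) were also lower. Over the 5 WT#1-4 libraries together Rbp4 had 82 counts, Apob 47, Apoa4 38 and Cer1 26. The number of genes called lower was 8 with all these libraries, and 5 without Nox4-/- #5-8, 4 without Nox4-/- #5-23, 5 without day 3, 5 without day 5, 3 without day 7 and 5 without day 14. The median log2 fold change of the 35 genes was -1.4, or -0.66 with the 6 genes at 0 in 1 group set to their floor, against 0 for all genes. This test treats the 5 days of each line as if they were independent samples.

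Each Nox4-/- line was then set against WT#1-4 in the fit of line and day. In Nox4-/- #5-8, 10 genes were lower and 2 higher, where 9.71% of all genes were lower and 6.13% higher. In Nox4-/- #5-23, 10 genes were lower and 2 higher, where 11.1% of all genes were lower and 8.05% higher. Rbp4, Apoa4, Apoe, Cited1, Cer1, Pth1r and Cxcr4 were lower in both, and Apoh was higher in both. Cubn (-2.13 ± 0.498 SE, FDR of 0.00792), Dab2 (-1.42 ± 0.387 SE, FDR of 0.0194) and Gata6 (-3.27 ± 0.786 SE, FDR of 0.0093) were lower, and Amn (2.12 ± 0.571 SE, FDR of 0.0183) higher, in Nox4-/- #5-8. Apob, Lrp2 and Foxa3 were lower, and Hhex (1.46 ± 0.425 SE, FDR of 0.023) higher, in Nox4-/- #5-23. Between both Nox4-/- lines, 4 of the 34 genes passed, namely Apoe, Lrp2, Gata6 and Hhex, as did 7.76% of all genes.

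The size of the genotype difference turned on which wild type line was used. Against WT#20D-17 instead, the exact test called 32 of the 35 genes lower in the Nox4-/- lines (16% of all genes) with 1 higher, Apoh. With both wild type lines it called 31 lower (9.61% of all genes), again with Apoh higher. When the line was taken as the unit, with counts summed over days and 2 lines against 2, 0 of the 27 genes tested were called at an FDR below 0.05 (edgeR quasi-likelihood test), and 0% of all 20229 genes were. At an unadjusted p below 0.05, 14 of the 27 genes and 8.05% of all genes passed. DESeq2 called 22 of the 27 genes, 1 of them higher, where it called 6.42% of all genes. Without WT#1-4 the edgeR test called 30 of 34 genes, where it called 19.6% of all genes, but the wild type arm was then the 1 sample of WT#20D-17, assumed to vary like the Nox4-/- pair. Without any other line it called 0. The lowest FDR of the set was 0.604. Apoe, for example, differed by -5.38 ± 1.85 SE log2 units (FDR of 0.604). Ttr, Trf, Alb, Apoc2, Fga, Fgb, Fgg and Hnf4a did not pass the filter on low counts there.

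Whether the course over days differed between genotypes was tested with the line as a block. Of the 34 genes, 0 were called (edgeR quasi-likelihood test, FDR below 0.05), as against 0.026% of all genes. At an unadjusted p below 0.05 there were 4, namely Gata4, Apoc2, Cubn and Apoe, where 7.23% of all genes passed. DESeq2 called 1, Gata4 (2.15% of all genes). The edgeR test called 10 of 34 without WT#1-4 (11.1% of all genes) and 1 of 23, Gata4, without WT#20D-17 (0.145% of all genes), each time with 1 wild type line left. The difference in course between WT#1-4 and WT#20D-17 was not tested.

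Over the days, 14 of the 34 genes were called as changing in the joint fit of the 4 lines, where 27.6% of all genes were. Such a call does not mean a change in each line. Ttr, Fga, Fgb and Sox17, which are among the 14, had 0 counts in every Nox4-/- library. Between day 0 and day 14, 13 genes were higher (21.3% of all genes) and 1 was lower (19.7% of all genes). The rise was 9.29 ± 1.08 log2 units for Afp (FDR of 9.18e-06), 6.46 ± 1.15 for Rbp4 (FDR of 0.000332) and 4.82 ± 0.878 for Apoa1 (FDR of 0.000418). Fgb (FDR of 0.00192) and Fga (FDR of 0.00952) also rose, but no fold is given for them, since over the 4 lines Fga had 0 counts on day 0 and Fgb 2. On day 14, Fga had 41 counts in WT#20D-17 and 1 in WT#1-4, Fgb had 398 and 3, and both had 0 in the Nox4-/- lines. Apoc2, Apob, Ttr, Apoa4, Sox17, Foxa2, Gata6 and Pth1r rose by between 2.06 and 4.53 log2 units, and Hhex fell by 2.11 ± 0.488 log2 units (FDR of 0.00264). By role these were 3 of the 4 carriers tested, 4 of the 8 apolipoproteins, 2 of the 4 of the fibrinogen group, 0 of the 4 uptake receptors, 3 of the 10 regulators with Hhex lower, and 1 of the 4 signals. On day 3, Afp, Apoa1 and Apoe were higher than on day 0, 3 of 34 where 0.603% of all genes were higher. For Afp and Apoa1 this was seen in WT#20D-17, where Afp went from 28 to 746 counts and Apoa1 from 100 to 2027, while the other 3 lines had at most 1 count of either gene on both days. Apoe had more counts on day 3 in each of the 4 lines. Without WT#20D-17, Apoe and Lrp2 were called higher, 2 of the 23 genes tested, and 1.44% of all genes were called in either direction. Between days 3 and 7 and between days 7 and 14, 0 of the 34 genes passed (0.213% and 0.364% of all genes), with 10 and 8 at an unadjusted p below 0.05, as were 17.2% and 16.5% of all genes.

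These changes rested in large part on WT#20D-17. Without it, 5 of the 23 genes tested were higher on day 14 than on day 0 (23.7% of all genes in that fit) and 3 were lower (21.6% of all genes). Apob, Apoa1, Pth1r, Cxcr4 and Cubn were the 5, and Hhex, Apoa2 and Plat the 3. The change of Plat was 0.41 log2 units with all lines (FDR of 0.767) and -1.85 without WT#20D-17 (FDR of 0.037). Without WT#20D-17 the change of Afp was 3.92 ± 1.82 log2 units (FDR of 0.1), and that of Rbp4 2.74 ± 1.14 (FDR of 0.0653). Without the line as a block, 0 of the 34 genes were called on the test of change over days or between days 0 and 14, 0 and 3, 3 and 7, or 7 and 14. Hhex was lower on day 14 than on day 0 in each of the 4 lines, going from 4.6 to 0.942 CPM in WT#1-4, from 10 to 2.2 CPM in WT#20D-17, from 3.47 to 1.07 CPM in Nox4-/- #5-8 and from 10.1 to 2.26 CPM in Nox4-/- #5-23.

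The study's own primers for 2 genes of the set, Afp and Foxa2, were placed on the annotation. The paper also lists primers for Gata4, Gata6 and Sox17, which were not placed. The Afp pair, which matched 1 transcript, amplifies 95 bases across exons 11 and 12 of 15 in the coding sequence of Afp-201 (chr5:90505048-90506574). The Foxa2 pair, which matched 3 transcripts, amplifies 111 bases within exon 3 of 3 of Foxa2-201 (chr2:148043681-148043791), also coding. They are shown because PCR with them reads the same transcripts as the counts given here.
Afp forward: agctcagcgaggagaaatggt
Afp reverse: gttcacagggcttgcttcattc
Foxa2 forward: agcaccattacgccttcaac
Foxa2 reverse: ccttgaggtccattttgtgg
Outside WT#20D-17, the highest count of Afp was 25 and that of Foxa2 was 8, both in WT#1-4 on day 14.

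Other endoderm genes, taken from lists outside the 35, were placed beside them. Of 24 further yolk sac and liver type genes, 22 were tested, and 18 were higher and 2 lower in WT#20D-17 than in WT#1-4. Of 18 anterior visceral endoderm, definitive endoderm and gut genes, 17 were tested and 17 were higher. In that contrast 26.7% of all genes were higher and 24.6% lower. Spink1, a secreted protease inhibitor, stood at 17.3, 202, 489, 440 and 67.8 CPM in WT#20D-17 and at no more than 1.09 CPM elsewhere. Trh and Lefty1 were highest on day 0 in WT#20D-17, at 268 and 408 CPM. In the joint fit of all lines they fell between day 0 and day 14 (log2 fold changes of -4.4 and -5.11, FDR of 0.000531 and 0.0198). That fit was not repeated for them without WT#20D-17. Both count among the 17 and were highest before differentiation, so the 17 are not a measure of endoderm alone. Ahsg, fetuin, a liver serum protein named here after its values were seen, stood beside Apoh in its direction, at 10, 12, 17.1, 19.7 and 41.9 CPM in Nox4-/- #5-8 and 2.04, 4.26, 9.04, 9.86 and 10.5 CPM in Nox4-/- #5-23, against at most 3.21 CPM in WT#1-4 and 0.262 CPM in WT#20D-17.

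Some marker lists of other cell types rose over the days in WT#20D-17, as most of the endoderm genes did, and others fell. The 8 pluripotency markers summed to 2100 CPM on day 0 and 274 CPM on day 14 in WT#20D-17, and to between 68.6 and 203 CPM in the other lines, where most of the sum was Fgf4. The 8 cardiac markers went from 8.24 to 240 CPM in WT#20D-17, and the 8 feeder fibroblast and mesenchyme markers from 23.8 to 3000 CPM. In the other lines these lists did not pass 18.1 and 112 CPM. Epithelial keratins and adhesion genes are shared by endoderm and other epithelia. In the joint fit of the 4 lines, 8 of 8 were higher on day 14 than on day 0. Of all genes 21.3% were higher in that test. In WT#20D-17 itself, Cdh1 went from 459 to 212 CPM and Epcam from 120 to 58.1 CPM between these days. Krt7, Krt8, Krt18, Krt19, Cldn6 and Cldn7 rose there. The endothelial list went the other way on day 0, at 19.8 CPM in WT#20D-17 and 406 CPM in WT#1-4, most of it Tek. The macrophage list summed to at most 109 CPM and was led by Cd68, with Csf1r at up to 36.1 CPM, while its markers Adgre1, Ptprc, Tyrobp, C1qa, C1qb and Fcer1g did not pass 1.47 CPM. Of the notochord and floor plate markers, which share Foxa2 with endoderm, 4 of 5 tested were higher in WT#20D-17 than in WT#1-4. Of the neural progenitor markers 3 of 6 were higher and 2 lower. Among all genes 26.7% were higher and 24.6% lower in that contrast. The part of these cells, and of the pluripotent state of the lines, in the endoderm levels was not tested.

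**Figure D5:**
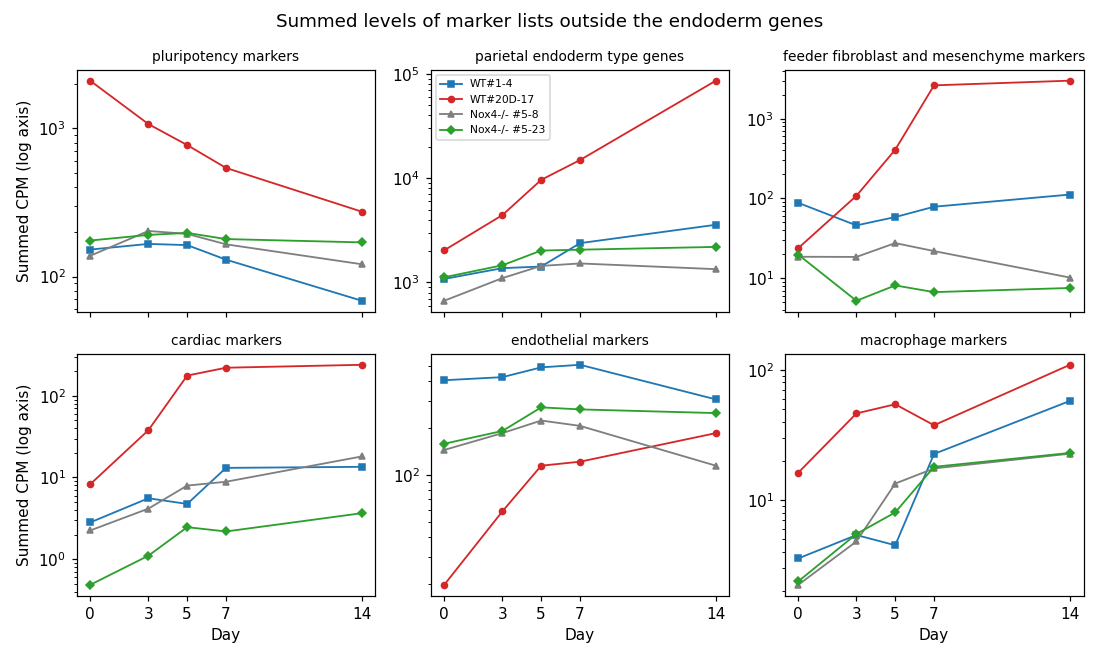
Summed CPM of 6 marker lists outside the 35 genes in each line, by day, on log axes. WT#20D-17 starts highest for the pluripotency list (2100 CPM) and ends highest for the parietal endoderm type list (85900 CPM), and it starts lowest for the endothelial list (19.8 CPM).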

How the data were processed

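Embryoid body RNA of 4 mouse iPSC lines was sequenced in 20 libraries. The authors prepared stranded mRNA libraries, trimmed reads with fastx_toolkit, mapped them to mm10 (GRCm38) with STAR 2.6.0c and deposited gene-level expected counts from RSEM 1.3.1. The strand setting of RSEM is not given in the sources used here, and RSEM divides reads that fit several genes: 9.92% of values were not whole, and were rounded.

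Gene symbols and positions came from GENCODE M21. CPM values used TMM factors over the genes with any count. Wilson intervals (95%) and a floor of 3 counts per library cover counting error only. Days, lines and the course by genotype were tested with edgeR 4.0.16 (R 4.3.3) quasi-likelihood fits with the line as a block, which the labels give by the line's name, after edgeR's expression filter, at an FDR below 0.05. The pooled comparison used the exact test on 33860 genes at an FDR below 0.01. Scripts were tested on simulated data. Alternatives were upper quartile scaling, no filter, DESeq2 1.42.0, other thresholds, no block, and leaving out lines and days.

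The members and lists were chosen with earlier results of these data known. All 35 members are given, with full statistics for the up to 4 with the highest mean CPM in each role group and for members called by the genotype tests. Other lists are given by counts and by up to 3 genes called between days 0 and 14, with Nox4 and the neighbours in the Afp, Apoa1 and Apoe clusters. Nanog, Zfp42, Col4a1, Tek, Ahsg and the macrophage markers are outside this rule and were named after their values were seen.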

Additional observations from a re-analysis of the deposited data

Results flagged for a closer look

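In 3 of the 13 genes that had more than 3 counts in at least 1 library of every line, the change from day 0 to day 14 had one sign in both wild type lines and the opposite sign in both Nox4-/- lines. By the same rule this held for 7.75% of all 17350 genes. On the log2(CPM + 1) scale, the mean change of the wild type lines minus that of the Nox4-/- lines was 2.64 for Gata4, which went up by 1.03 in WT#1-4 and 2.91 in WT#20D-17 and down in both Nox4-/- lines (-0.59 and -0.74). It was 0.99 for Foxa1, with changes of 0.22, 1.46, -0.05 and -0.25, and -0.54 for Amn, with changes of -0.04, -0.11, 0.89 and 0.05. The counts behind these were few outside WT#20D-17. Amn had 2 and 1 counts on days 0 and 14 in WT#1-4 and 1 and 2 in Nox4-/- #5-23, all within the floor of 3 counts, so the direction in these lines cannot be read. Foxa1 had 3 and 6 counts in WT#1-4, 7 and 5 in Nox4-/- #5-8, and 5 and 0 in Nox4-/- #5-23. With 1 library per line and day these differences were not tested line by line, and in the test of the course by genotype none of the 3 passed (FDR of 0.5 for Gata4, 0.972 for Foxa1 and 0.933 for Amn, edgeR quasi-likelihood test).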

How the results depend on the processing

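The contrast of WT#20D-17 with WT#1-4 was stable: of 34 genes, between 31 (DESeq2) and 33 (without day 0) were higher and 0 lower under every alternative run. Changes over days were less so. The 14 genes called became 5 with DESeq2, 7 at an FDR below 0.01 and between 7 and 11 when a line was left out (7 without WT#20D-17, 8 without Nox4-/- #5-8 and 8 without Nox4-/- #5-23). The 13 genes higher on day 14 became 5 with DESeq2 and between 5 and 14 when a line was left out, and the 1 lower gene became between 1 and 3. Without the replicate block, here the line, 0 genes were called over days, 0 higher and 0 lower on day 14, and 0 in the course by genotype. In the pooled exact test, the 8 genes lower in the Nox4-/- lines became 32 against WT#20D-17, 31 with all 20 libraries, 5 with DESeq2, 3 at an FDR below 0.001, and between 3 and 8 when a line or day was left out. With the line as the unit, the 0 genes called became 22 with DESeq2 and between 0 and 30 when a line was left out, which leaves an arm of 1 sample. The course by genotype went from 0 genes to 1 with DESeq2 and to between 0 and 10 when a line was left out. The cause of these shifts was not tested. No called gene turned its direction, but 5 genes not called with all lines turned sign on day 14 without WT#20D-17, namely Plat, called lower there, and Lrp2, Gata4, Foxa1 and Cer1, not called. Of 70 highest levels recomputed, 18 moved past their counting interval, all with upper quartile scaling. Alternatives for the tests between successive days were chosen after seeing the data: the 3 genes higher on day 3 became 0 without the replicate block and 2 without WT#20D-17. With 1 library per line and day, and few counts outside WT#20D-17, differences among the other 3 lines were often not detectable at this depth.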
